A study of Rattus norvegicus with 91 samples.

Results

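The insulin receptor gene Insr, the receptor's adaptor genes Irs1 and Irs2, the PI3 kinase subunit gene Pik3r1 and the kinase gene Akt1 were followed in rat liver after a glucocorticoid. A probe set was taken as a member if its single annotated gene symbol was one of these 5. That gave 17 of the 24722 probe sets on both array designs, with 10 of 8799 in the short course and 7 of 15923 in the long course. Glucokinase was not analysed here. Liver RNA came from Wistar rats given methylprednisolone, a synthetic glucocorticoid, at 50 mg/kg. The short course holds 16 times of 0.25, 0.5, 0.75, 1, 2, 4, 5, 5.5, 6, 7, 8, 12, 18, 30, 48 and 72 h, with 3 arrays each, or 2 at 2, 5, 12, 30 and 72 h, and 4 arrays labelled Ctr. The long course holds 4 arrays at each of 6, 10, 13, 18, 24, 36, 48, 72, 96 and 168 h and 4 arrays labelled Ctr. Route, schedule, vehicle, clock time and what the controls received are not in the labels. Nor do the labels say whether replicate arrays come from separate animals, so the errors and p-values measure the spread between arrays, which may be technical.

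Insulin binds a receptor tyrosine kinase on the hepatocyte surface, and the active receptor phosphorylates the adaptor proteins IRS1 and IRS2. These recruit PI3 kinase through its regulatory subunit, p85-alpha, which Pik3r1 encodes, and the lipid it makes brings the kinase AKT1 to the membrane. AKT then acts on glycogen synthesis, on protein synthesis and on the FOXO transcription factors. In liver, insulin lowers glucose output and promotes fat synthesis, and glucocorticoids are known to oppose many of these actions. All values here are transcript signals, and phosphorylation, the step by which the pathway signals, was not measured.

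Promoter windows were looked up for motifs of factors tied to glucocorticoid and insulin action. RefSeq windows, 250 bases before to 50 after the gene start on build GRCr8, were found for 4 of the 5 genes. They are Insr (chr12:6128754-6129053), Irs1 (chr9:91053910-91054209), Pik3r1 (chr2:34697611-34697910) and Akt1 (chr6:137552561-137552860), all on the minus strand. GC content was 71.3% for Insr, 70.3% for Irs1, 75.3% for Pik3r1 and 56% for Akt1, against a median of 51.7% over all 33469 windows of this length. The Insr window is shown because it alone held a match, with the forkhead motif TGTTTAC in capitals, and the Akt1 window because its gene changed over time. The match begins 100 bases before the gene start, at position 151 of the window, and 3.78% of all windows hold this motif on either strand. None of the 4 windows held the glucocorticoid receptor hexamer AGAACA (in 20.7% of all windows), the cyclic AMP response element TGACGTCA (1.83%) or the E-box CACGTG (6.42%). Both strands were searched, and these motifs do not contain one another. Windows rest on the annotated gene start, and whether liver transcription begins there was not tested. The Akt1 window holds an ATG close to its end and may reach into coding sequence. Its lack of motifs is thus no evidence about the Akt1 promoter used in liver.
Insr: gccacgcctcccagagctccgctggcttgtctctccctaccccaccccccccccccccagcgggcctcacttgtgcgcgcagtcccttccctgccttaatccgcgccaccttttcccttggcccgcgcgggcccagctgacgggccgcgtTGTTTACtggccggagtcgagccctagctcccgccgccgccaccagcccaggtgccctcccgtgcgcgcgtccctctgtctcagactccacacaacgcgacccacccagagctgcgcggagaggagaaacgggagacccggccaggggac
Akt1: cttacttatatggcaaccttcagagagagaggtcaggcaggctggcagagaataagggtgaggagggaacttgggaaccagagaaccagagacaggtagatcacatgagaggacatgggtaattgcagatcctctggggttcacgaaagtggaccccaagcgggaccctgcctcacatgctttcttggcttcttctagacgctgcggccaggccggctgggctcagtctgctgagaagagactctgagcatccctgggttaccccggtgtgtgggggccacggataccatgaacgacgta

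Signals of the 2 courses were scaled separately and are never set side by side as levels. The 6 hepatocyte markers measured of 7 listed summed to between 37760 and 174600 in the short course and between 36850 and 98010 in the long course, and albumin (Alb) was near 0 on 1 short-course array, at 0.152. Tat, the tyrosine aminotransferase gene that glucocorticoids induce, rose at 4-8 h of the short course by 0.79 ± 0.23 (limma, adjusted p = 0.0108) and at 6-18 h of the long course by 1.41 ± 0.27 (limma, adjusted p = 0.000424). Altogether 9 short-course arrays and 1 long-course array correlated with the others of their course at a mean under 0.9. These were controls 1 and 3, 0.5 h replicate 3, 2 h replicate 1, 4 h replicate 3, 5 h replicate 2, 7 h replicate 3, 8 h replicate 3 and 72 h replicate 2 of the short course, and 96 h replicate 3 of the long course. Among long-course arrays 15 had high and 29 low spike-in control signals, and the 15 include all 11 arrays numbered replicate 4. The short-course 6 h replicate 3 was deposited on another scale and was rescaled, and without that step no member passed the test for change at any time. In whole liver, fewer cells of a type and less RNA per cell cannot be told apart.

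Akt1 was the one member gene whose signal changed over time by the test across all times, in both courses. In the short course both Akt1 probe sets were low at 12, 18 and 72 h and high at 30 and 48 h, though no single time passed against the controls. Of the 3 long-course Akt1 probe sets 2 were low at 24 to 48 h and highest at 168 h, though neither passed at 168 h against the controls. Irs2 was lower at 13 h of the long course, a call lost in 7 of the 44 fits that left out 1 array. Its test across all times did not pass (limma F test, adjusted p = 0.0528). Insr, Irs1 and Pik3r1 passed no test in either course. Changes below are log2 differences of signal plus 32 ± standard error, from limma. A change passes at an adjusted p under 0.05 over all probe sets tested in that course. Each comparison was adjusted by itself, with no correction for the number of times and windows. Groups this small can lie wholly outside the range of the controls by chance. How often that happened over all probe sets was not counted, so such separations are descriptions.

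Of the 10 short-course member probe sets 5 passed the filter on dim signal, the brightest of each gene except Pik3r1 and a second for Akt1. In the F test for a change at any time 2 of these 5 passed, beside 33.6% of the 6118 probe sets tested. All 7 long-course member probe sets were tested, and 2 passed, beside 23.8% of 11106. With so few members, counts like these are not a result about the genes as a set.

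Single times were then each compared with the controls. In the short course none of the 80 comparisons of a member with controls passed (limma), and 10 had an unadjusted p under 0.05. The share of all probe sets that passed was 0.196% (0.25 h), 8.81% (0.5 h), 0.131% (0.75 h), 1.23% (1 h), 15% (2 h), 18.1% (4 h), 7.18% (5 h), 12.7% (5.5 h), 11.5% (6 h), 8.4% (7 h), 13.2% (8 h), 0.327% (12 h), 0.376% (18 h), 0.049% (30 h), 0.262% (48 h) and 0.049% (72 h). Of 70 long-course comparisons 2 passed and 7 had an unadjusted p under 0.05. There the share of all probe sets was 4.6% (6 h), 7.55% (10 h), 4.96% (13 h), 4.99% (18 h), 1.44% (24 h), 5.07% (36 h), 4.01% (48 h), 5.74% (72 h), 8.09% (96 h) and 7.43% (168 h).

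Averages over windows of times gave no member call. In the short course 0 of 25 passed (limma), with 3 at an unadjusted p under 0.05, beside 3.42% (0.25-0.75 h), 12.2% (1-2 h), 27% (4-8 h), 0.997% (12-18 h) and 0.0981% (30-72 h) of all probe sets. For long-course windows 0 of 21 passed (limma), with 2 at an unadjusted p under 0.05, beside 9.31% (6-18 h), 5.23% (24-48 h) and 10.8% (72-168 h). The median change of the 5 member probe sets tested at 12-18 h of the short course was -0.38, beside -0.09 over all 6118 probe sets. Akt1 counts more than once among them and Pik3r1 not at all, and the median is the value of an Akt1 probe set. At 24-48 h of the long course the median of the member probe sets was -0.12, also the value of an Akt1 probe set, beside -0.04. The last window was also set against an earlier one. No member passed in 30-72 h minus 4-8 h of the short course, where 36.7% of all probe sets did, and none had an unadjusted p under 0.05. In 72-168 h minus 6-18 h of the long course 21.2% of all probe sets passed and no member did, with 1 at an unadjusted p under 0.05.

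**Figure D1:**
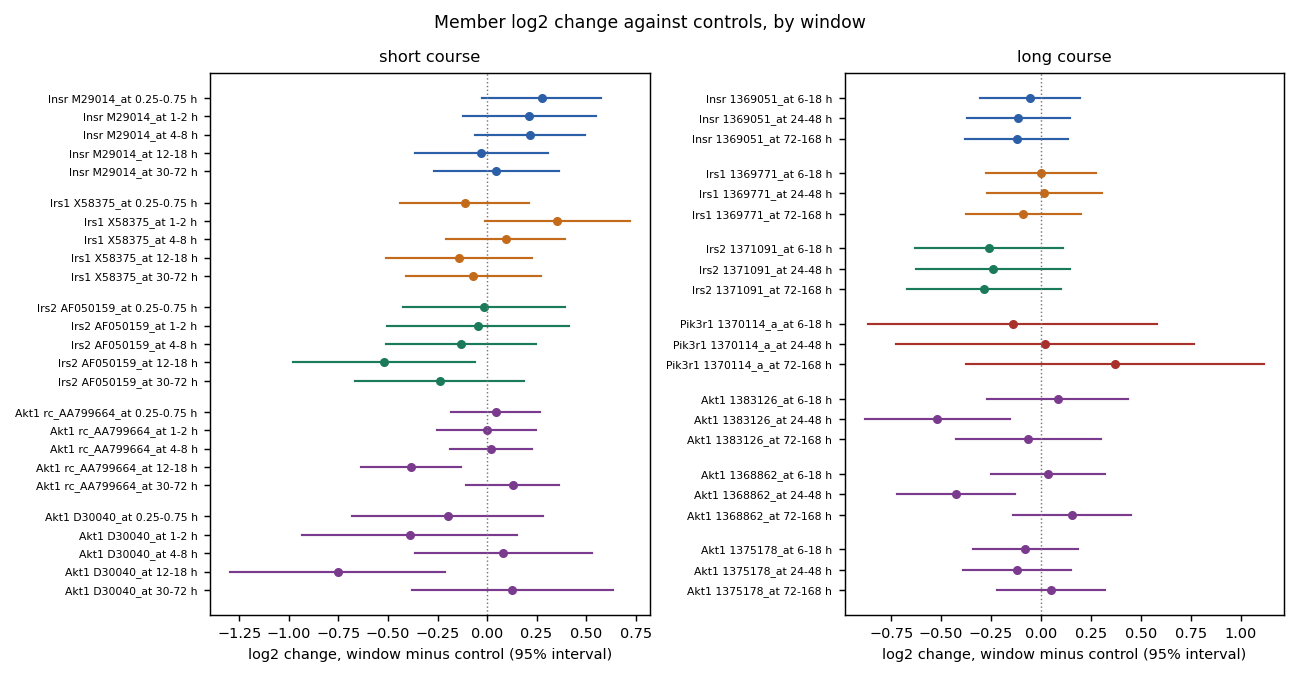
Log2 change of each tested member probe set in each window against the controls of its course, with 95% intervals before adjustment. Intervals that leave out 0 belong to Akt1 and Irs2 at 12-18 h of the short course and to 2 Akt1 probe sets at 24-48 h of the long course, and none passed after adjustment.

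Insr encodes the receptor itself. Its short-course probe set, M29014_at, had signals of 594, 522 and 573 at 0.75 h, the highest group mean, against 537, 381, 325 and 389 in the controls. It read 392 and 343 at 72 h, the lowest group. At none of the 16 times did all arrays lie outside the range of the controls, where control 1 stood alone at 537. At 0.25-0.75 h 8 of 9 arrays lay above the control mean, and the change of 0.28 ± 0.15 did not pass (limma, adjusted p = 0.274, 95% interval -0.02 to 0.58). The direction at 30-72 h turned with the scaling, from 0.05 as deposited to -0.01 after median centring. The long-course probe set spanned 24.7 to 97.0, with 76.0, 48.7, 81.4 and 79.2 at 6 h and 39.3, 45.8, 63.4 and 24.7 at 96 h, against 70.2, 63.9, 48.0 and 61.5 in the controls. Every time overlapped the controls, and no neighbours in the order of group means were apart. Window changes lay between -0.12 and -0.05. The 3 genes with group means most like those of Insr were Pi4ka (r = 0.88), Pdha1 (r = 0.85) and Pygb (r = 0.81) over the 17 short-course groups. They were Trappc10 (r = 0.90), Ptbp2 (r = 0.87) and Zfp609 (r = 0.85) over the 11 long-course groups. These likenesses are descriptions of shared arrays, picked as the highest among all named genes.

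Irs1 encodes one of the adaptors that the receptor phosphorylates. Signals of X58375_at were 323, 205 and 235 at 1 h and 216 and 254 at 5 h, all above the controls, which read 156, 197, 179 and 161. At 0.25 h they were 128, 154 and 121, all below those controls. The group means thus ran from lowest at 0.25 h to highest at 1 h, while at the other times the arrays overlapped the controls. The F test did not pass (limma, adjusted p = 0.209). At 1-2 h all 5 arrays lay above the control mean, and the change of 0.36 ± 0.18 did not pass (limma, adjusted p = 0.192, 95% interval -0.01 to 0.72). The long-course probe set was dim. It spanned 15.6 to 58.1 and stood at the 31.8th percentile of mean signal, just inside the filter. Its 4 arrays at 6 h, 49.2, 43.3, 43.1 and 45.9, lay above all controls, 42.7, 40.0, 32.7 and 37.9, by a narrow margin. Window changes were between -0.09 and 0.02. Over the short-course groups Cd63 (r = 0.75), Mdm2 (r = 0.73) and Sds (r = 0.72) were most like Irs1. Over the long-course groups they were Senp2 (r = 0.94), Nrep (r = 0.90) and Ddx24 (r = 0.90). Over single arrays, in that order, r was 0.70, 0.69 and 0.54 in the short course and 0.27, 0.24 and 0.32 in the long course.

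Irs2 encodes the other adaptor, whose transcript insulin is known to repress in liver. Long-course signals were 49.2, 45.2, 63.99 and 63.2 at 13 h, against 129, 128, 130 and 87.9 in the controls. All 4 arrays at 13 h lay below every control. Irs2 fell by 0.78 ± 0.23 there on the log2 scale (limma, adjusted p = 0.0413, 4 of 4 arrays). The call was lost when control 1, 2 or 3 or any one of the 13 h arrays was left out, with adjusted p between 0.0577 and 0.122 in those 7 fits. Among the arrays of low spike-in signal alone the change was -0.93 (adjusted p = 0.0527), and with that signal as a term it was -0.78 (adjusted p = 0.0351). Macrophage markers summed to 884 to 1225 at 13 h, against 1352 to 1798 in the controls. They were below the controls at 10 h (968.5 to 1025) and 18 h (661 to 1057) too. Hepatocyte markers summed to 39230 to 78900 at 13 h, against 53030 to 93770. The mean Gapdh log2 ratio of the 3' to the 5' probe sets, a measure of RNA integrity, was 0.15, against 0.10. Their part in the Irs2 change was not tested. The neighbouring times did not follow, since at 10 h the signals were 76.5, 153, 96.3 and 61.9 and at 18 h 50.7, 142, 102 and 136. At 96 h all 4 arrays, 90.9, 81.8, 44.8 and 66.2, lay below the control mean, with a change of -0.56 ± 0.23 that did not pass (limma, adjusted p = 0.139). The F test missed the threshold (limma, adjusted p = 0.0528) and passed in 17 of the 58 alternative fits.

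The brightest short-course Irs2 probe set, AF050159_at, spanned 323 to 1249. It read 449 and 393 at 12 h and 461 and 501 at 72 h, all below the controls at 773, 697, 542 and 586. At 18 h the signals were 585, 323 and 510, which overlap the controls. The 12-18 h change was -0.52 ± 0.23, with 5 of 5 arrays below the control mean, and it did not pass (limma, adjusted p = 0.308). Nor did the F test (limma, adjusted p = 0.318). Genes most like Irs2 in group means were Ndrg4 (r = 0.92), Taf6 (r = 0.88) and Kcnq3 (r = 0.87) over the short-course groups. For long-course groups these were Myoz1 (r = 0.94), Sik2 (r = 0.89) and Tle6 (r = 0.87). Over single arrays, in that order, r was 0.57, 0.67 and 0.48 in the short course and 0.11, 0.50 and 0.16 in the long course.

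The other 3 Irs2 probe sets of the short course, U89743_at, AF087674_at and AF083418_at, averaged 63.7, 63.5 and 60.8 and fell below the filter at 91.2. AF083418_at, singled out after its values were seen, was high on a few arrays, with 353 on 5 h replicate 2, 255 on 2 h replicate 1, 236 on 4 h replicate 3, 227 on 1 h replicate 2 and 197 on 7 h replicate 3. Control signals were 27.4, 31.5, 17.8 and 22.0. At 0.5, 1, 2, 5 and 8 h all its arrays lay above all controls. Of the 5 arrays just named 4 are among those of low mean correlation. With no filter on dim probe sets it passed at 2 h (log2 change 2.02, limma, adjusted p = 0.024) and at 1-2 h (1.496, adjusted p = 0.0354). AF087674_at passed there at 0.5 h (1.18, adjusted p = 0.0398) and at 2 h (1.22, adjusted p = 0.0476). The bright probe set AF050159_at had a change of 0.15 at 2 h that did not pass, and U89743_at passed nowhere, so the probe sets annotated to Irs2 differed. Over the 47 arrays AF083418_at correlated with AF087674_at at r = 0.71 and with AF050159_at at r = 0.46. Its closest named genes over those arrays, as a description, were the hexokinase gene Hk2 (r = 0.89), the scavenger receptor gene Olr1 (r = 0.89) and the chemokine gene Ccl20 (r = 0.87). The 2 neutrophil markers measured of 5 listed, S100a8 and S100a9, summed to 4168 and 5769 at 2 h, against 106 to 606 in the controls. The 3 macrophage markers measured of 6 listed summed to 12510 and 12900, against 3486 to 3991. Of these 3, Clec4f reached at most 3056 on any short-course array, Csf1r 188.8 and Cd14 14600. High macrophage sums thus come mostly from Cd14 and are no count of cells. The part of the neutrophil and macrophage markers in the Irs2 signals was not tested.

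**Figure D2:**
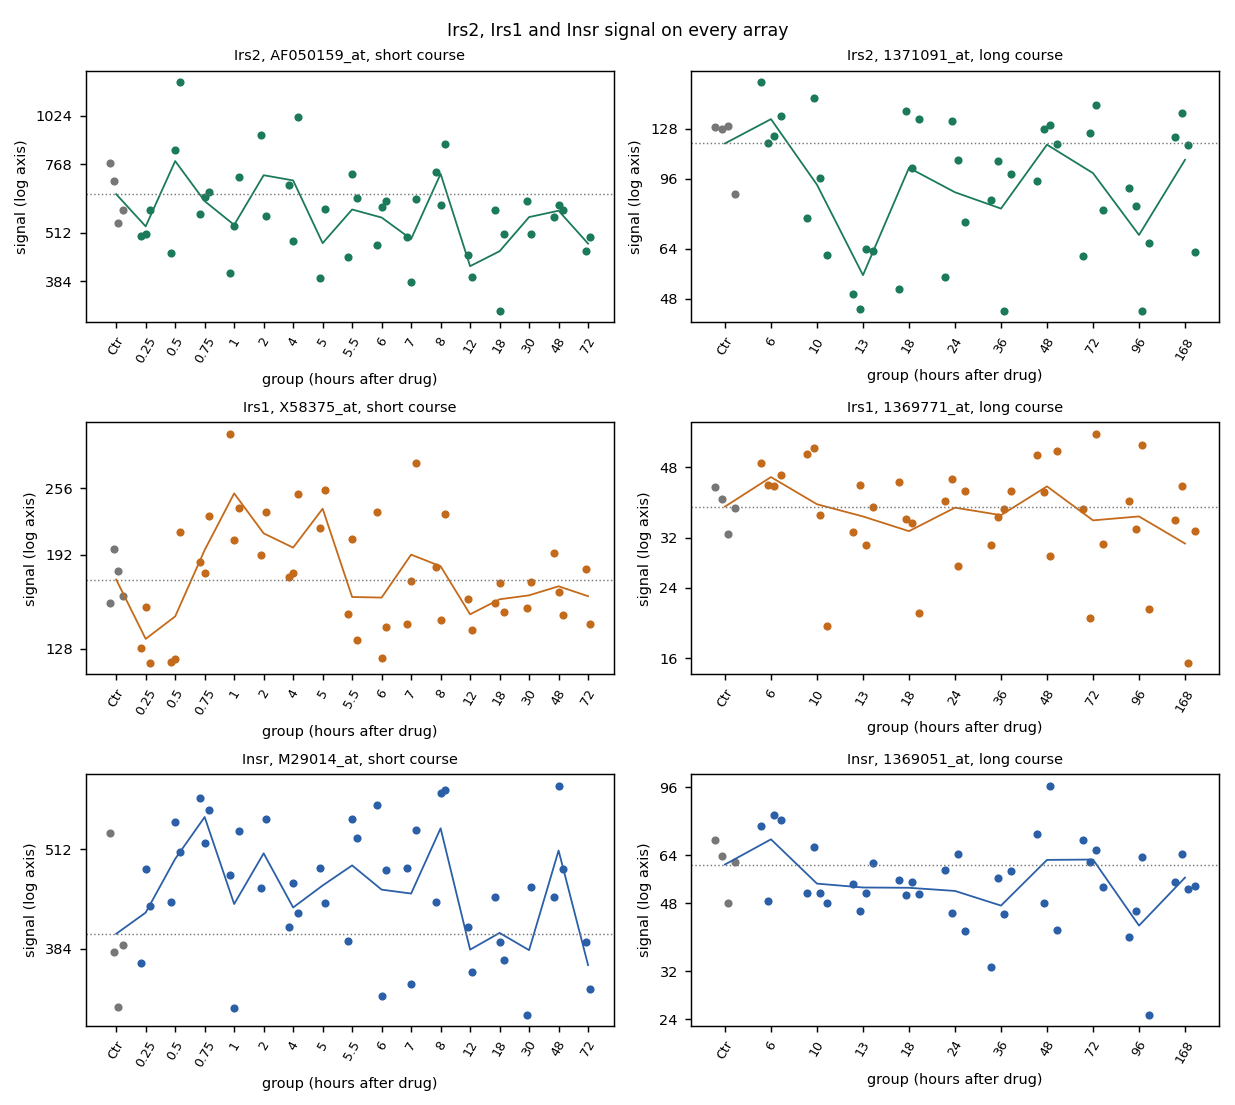
Signal of the brightest Irs2, Irs1 and Insr probe set on every array (points, log axis) by group, with short-course panels on the left and long-course panels on the right. Lines join group means of log2(signal + 32), the dotted line is the mean of the controls (grey, labelled Ctr), and the 4 Irs2 arrays at 13 h of the long course lie below all controls.

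Pik3r1 encodes p85-alpha, the regulatory subunit that docks PI3 kinase on the adaptors. Its short-course probe sets, U50412_at and D64045_s_at, stood at the 29.9th and 11.1th percentile of mean signal, just outside and well outside the filter, and were not tested. U50412_at was near 30 on most arrays (median 29.0) and reached 448 on 6 h replicate 2, 428 on 8 h replicate 1, 394 on 7 h replicate 2 and 350 on 2 h replicate 1, against 504, 45.7, 21.3 and 14.6 in the controls. High and low arrays thus stood side by side within groups, controls included. D64045_s_at was high on those arrays too, with 94.3, 168, 175 and 90.4 in that order, and 110, 15.1, 4.38 and 4.88 in the controls. The probe sets correlated at r = 0.92 over the 47 arrays, while the closest other named gene, Psmd1, reached r = 0.45 with U50412_at. With no filter neither passed the F test (limma, adjusted p = 0.936 for U50412_at and 0.775 for D64045_s_at). The long-course probe set spanned 8.77 to 261. It read 108, 229, 14.1 and 14.1 at 48 h and 206, 221, 175 and 261 at 96 h, against 133, 73.8, 89.9 and 201 in the controls. Every time overlapped the controls. The change of 0.51 ± 0.24 in 72-168 h minus 6-18 h, with 11 of 12 arrays above the earlier mean, did not pass (limma, adjusted p = 0.139, 95% interval 0.02 to 1.01). Rnf26 (r = 0.87), Chrna7 (r = 0.85) and Kif26b (r = 0.79) were most like it over the 11 groups, with r = 0.50, 0.44 and 0.41 over single arrays.

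**Figure D3:**
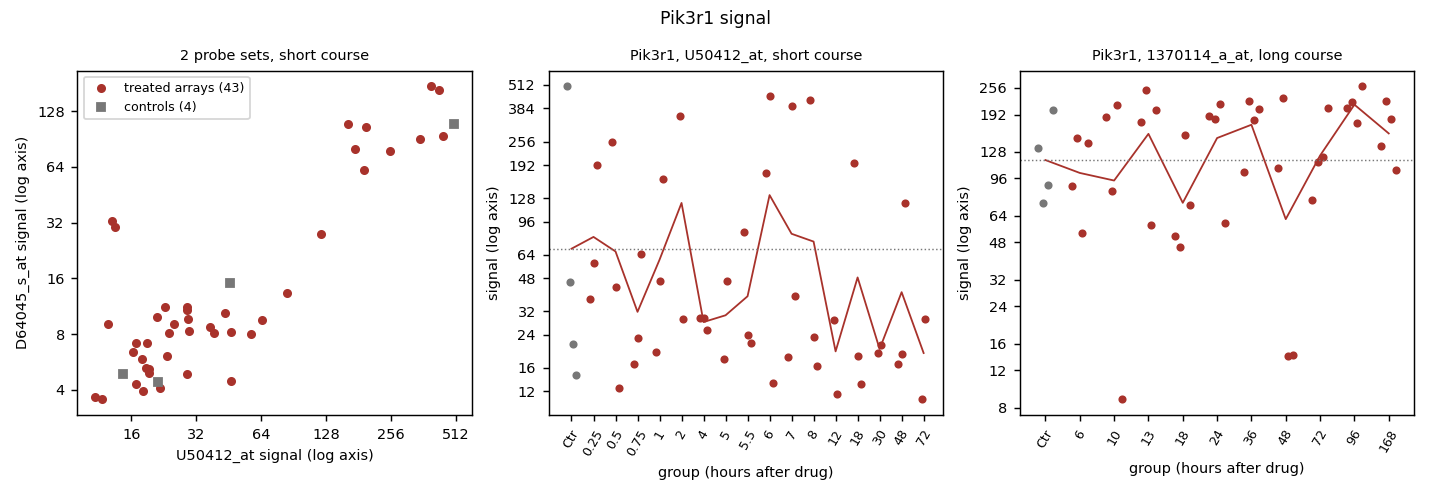
Pik3r1 signals. The left panel plots the 2 short-course probe sets against each other, 1 point per array on log axes, the middle panel U50412_at by group and the right panel the long-course probe set by group. Arrays high for one short-course probe set are high for the other (r = 0.92), and they are spread over many groups, control 1 at 504 and 110 among them.

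Akt1 encodes the kinase that relays the PI3 kinase signal. In the short course the brightest probe set, rc_AA799664_at, had signals of 1242, 1099 and 1152 at 18 h, against 1751, 1984, 1489 and 1255 in the controls. It read 1368 and 1179 at 12 h and 1196 and 1310 at 72 h, while at 30 h it read 1885 and 2280 and at 48 h 1978, 2163 and 2038. All arrays at 18 h lay below all controls, and at 12 and 72 h the groups overlapped the lowest control. The second probe set, D30040_at, read 305, 270 and 352 at 18 h and 324 and 356 at 12 h, all below the controls at 474, 841, 626 and 409. It was 736 and 887 at 30 h, 947, 710 and 873 at 48 h, and 454 and 270 at 72 h. Both probe sets thus ran low, high and low again across 18, 48 and 72 h, and they correlated at r = 0.71 over the 47 arrays. The F test passed for both (limma, adjusted p = 0.00309 for rc_AA799664_at and 0.00685 for D30040_at). No single time passed against the controls. The largest changes of rc_AA799664_at were -0.45 ± 0.14 at 18 h (limma, adjusted p = 0.181, 3 of 3 arrays below the control mean), 0.37 ± 0.16 at 30 h (adjusted p = 0.977) and 0.36 ± 0.14 at 48 h (adjusted p = 0.613, 3 of 3 above).

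D30040_at was also low at 0.5 h, with 115, 367 and 530, a change of -0.90 ± 0.30 that did not pass (limma, adjusted p = 0.0554). The array at 115 had the highest 3' to 5' Gapdh log2 ratio of the course, 0.67. The neutrophil markers summed to 3756 to 5935 at 0.5 h, against 106 to 606 in the controls, and the part of either in this signal was not tested. That change passed in 9 of the 59 alternative fits, among them both other scalings (-1.10, adjusted p = 0.0137 with quantile normalization, and -1.09, adjusted p = 0.0121 with median centring) and the fit without 0.5 h replicate 3 (-1.30, adjusted p = 0.0137). Without replicate 1, the array at 115, it was -0.34 (limma, adjusted p = 0.442), so that array carries most of the change. At 12-18 h all 5 arrays lay below the control mean for both probe sets, by -0.38 ± 0.12 (limma, adjusted p = 0.121) and -0.75 ± 0.27 (adjusted p = 0.177). The shift of all probe sets at 12-18 h was -0.09 as deposited and 0.01 after median centring, where the Akt1 changes were -0.29 and -0.66. The median sum of the 6 hepatocyte markers was 122300 at 18 h, 65010 at 48 h and 142000 at 72 h, against 109500 in the controls, whose arrays ran from 41670 to 174600. The mean Gapdh log2 ratio was 0.11 at 18 h, -0.09 at 48 h and 0.17 at 72 h, against 0.14 in the controls. Their part in the Akt1 pattern was not tested.

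Akt1 was read by 3 probe sets in the long course. The brightest had signals of 65.7, 117, 153 and 197 at 36 h, against 253, 261, 182 and 310 in the controls, and 3 of the 4 arrays at 36 h lay below every control. It fell by 0.83 ± 0.22 at 36 h on the log2 scale (limma, adjusted p = 0.0193, 4 of 4 arrays below the control mean). Without 36 h replicate 1, the array at 65.7, the change was -0.60 (adjusted p = 0.137). The call was also lost without 36 h replicate 2 (adjusted p = 0.0579), control 2 (0.0541) or control 4 (0.0701). It held among arrays of low spike-in signal (-0.91, adjusted p = 0.0103). Signals at 168 h were 389, 369, 283 and 227, the highest group. The change there of 0.29 ± 0.22 did not pass (limma, adjusted p = 0.501, 3 of 4 arrays above the control mean). At 168 h 3 of 4 arrays had high spike-in signal, against 1 of 4 controls, and the part of this was not tested. The second read 78.2, 64.8, 90.6 and 71.9 at 48 h and 204, 309, 159 and 147 at 168 h, against 103, 151, 96.8 and 165 in the controls. All its arrays at 48 h lay below every control, and those at 168 h overlapped them. Its changes were -0.55 ± 0.18 at 48 h (limma, adjusted p = 0.0722) and 0.53 ± 0.18 at 168 h (adjusted p = 0.0611). The F test passed for the second (limma, adjusted p = 0.000722) and the brightest (adjusted p = 0.00425). The third probe set stayed between 33.3 and 100 and did not pass (limma, adjusted p = 0.644). It correlated with the other 2 at r = 0.17 and r = 0.23 over 44 arrays, while these correlated with each other at r = 0.74, so the probe sets annotated to Akt1 disagreed. At 24-48 h the changes were -0.52 ± 0.18 for the brightest (limma, adjusted p = 0.0899, 9 of 12 arrays below the control mean), -0.43 ± 0.15 for the second (adjusted p = 0.0832, 11 of 12) and -0.12 ± 0.13 for the third (adjusted p = 0.742, 8 of 12). The mean Gapdh log2 ratio was 0.29 at 36 h, 0.29 at 48 h and 0.40 at 168 h, against 0.10 in the controls. The 2 red cell markers measured of 3 listed summed to 232 to 559 at 36 h, 211 to 1918 at 48 h and 1786 to 2830 at 168 h, against 306 to 3676 in the controls. The 4 macrophage markers measured of 6 listed summed to 762 to 959 at 36 h and 959 to 1235 at 168 h, against 1352 to 1798 in the controls. The 5 stellate markers summed to 428 to 561 at 36 h and 414 to 667 at 168 h, against 621 to 782. Hepatocyte sums overlapped, at 50770 to 90150 at 36 h against 53030 to 93770. The part of RNA quality and of these cells in the Akt1 signals was not tested.

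The 30 and 48 h arrays of the short course were high for Akt1 and the 36 and 48 h arrays of the long course low, each against its own controls. At 48 h the changes were 0.36 and 0.54 for the short-course probe sets and -0.40, -0.55 and 0.01 for those of the long course. The courses differ in array design and controls, and the difference between them was not tested. The drug response at these times was unlike too. Tat had -0.14 ± 0.26 at 30-72 h of the short course (limma, adjusted p = 0.9996) and 1.03 ± 0.27 at 24-48 h of the long course (adjusted p = 0.0169). Of all probe sets 0.0981% passed in the first of these windows and 5.23% in the second. The part of this in the Akt1 signals was not tested. In group means Akt1 was most like Aif1 (r = 0.85), Stmn1 (r = 0.84) and Mcm6 (r = 0.82) over the short-course groups. Over long-course groups it was most like its family member Akt2 (r = 0.93), read by a dimmer Akt2 probe set, Lrg1 (r = 0.93) and Fxr2 (r = 0.91). Over single arrays, in that order, r was 0.58, 0.53 and 0.64 in the short course and 0.45, 0.70 and 0.70 in the long course. The brightest Akt2 probe set had -0.23 ± 0.13 at 24-48 h and did not pass (limma, adjusted p = 0.399).

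**Figure D4:**
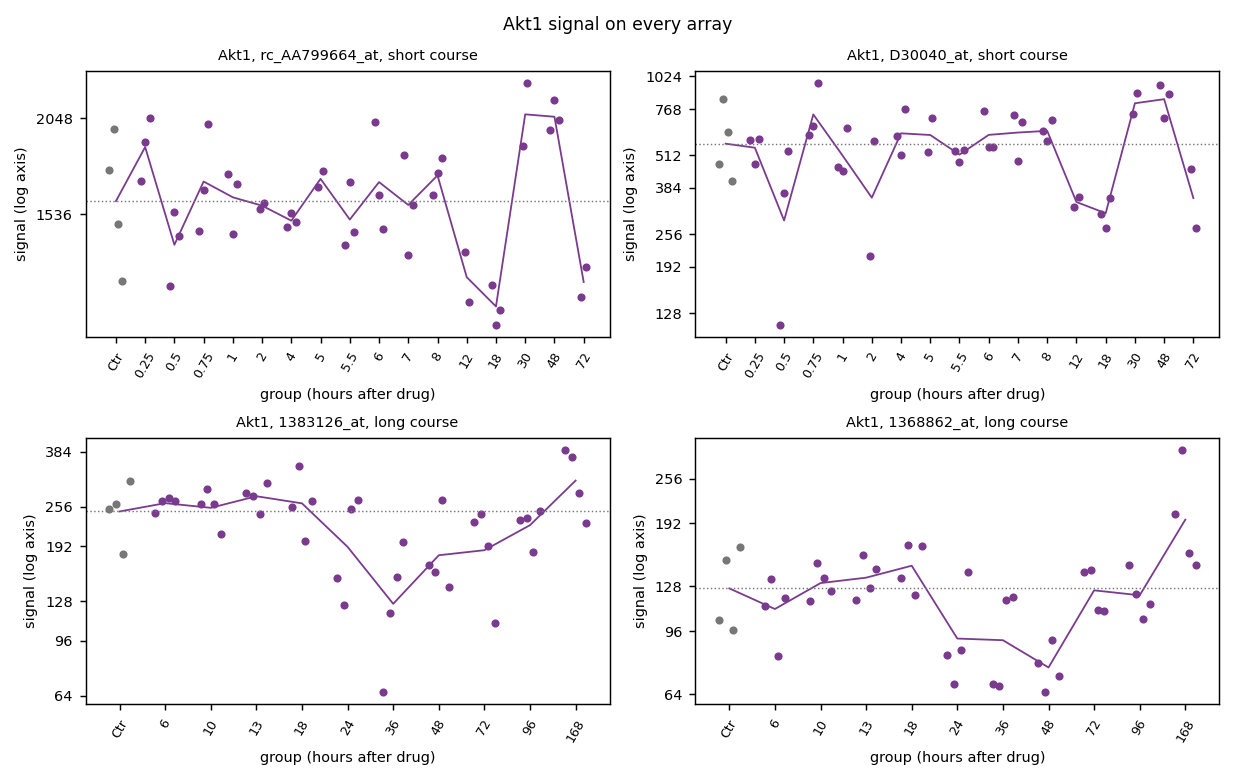
Signal of 4 Akt1 probe sets on every array (points, log axis) by group, short course above and long course below. Lines join group means of log2(signal + 32) and the dotted line is the mean of the controls (grey, labelled Ctr). Short-course arrays at 18 h lie between 1099 and 1242 for rc_AA799664_at, below all controls, and long-course arrays at 48 h between 64.8 and 90.6 for the second probe set.

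The other genes of the pathway were read from 7 lists of 90 genes in all, each gene by its brightest probe set. In the short course 52 were tested. At 4-8 h 9 rose and 7 fell, 30.8% in all beside 27% of all probe sets, with a median change of 0.01 beside 0.10. At 1-2 h 4 rose and 2 fell (11.5% beside 12.2%), at 0.25-0.75 h 1 rose, and at 12-18 h and 30-72 h none passed (limma). On the long-course arrays 66 were tested. At 6-18 h 4 rose and 6 fell (15.2% beside 9.31%), at 24-48 h 2 rose and 2 fell (6.06% beside 5.23%) and at 72-168 h 8 rose and 3 fell (16.7% beside 10.8%). In each course 18 of these genes passed in some window. The counts include Inpp4a at 4-8 h of the short course and Foxo1 at 24-48 h of the long course. Both were tested only through groups where they were high, as given below.

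At the level of the receptor, 2 of 15 genes tested rose and 1 fell at 1-2 h of the short course, beside 12.2% of all probe sets. Ptpn1, whose phosphatase removes phosphate from the insulin receptor, rose at 1-2 h of the short course by 2.19 ± 0.37 (limma, adjusted p = 0.000366, 5 of 5 arrays), to a signal of 6657 ± 3423 (n = 5) against 1393 ± 378 in the controls (SD, n = 4), and all 5 of its probe sets passed there, with changes of 0.59 to 3.11. Cish, a cytokine-induced suppressor of signalling, rose at 1-2 h by 1.56 ± 0.48 (limma, adjusted p = 0.0306). Neutrophil markers summed to 1150 to 4998 at 1 h and 4168 to 5769 at 2 h, against 106 to 606 in the controls. Macrophage markers summed to 4117 to 12210 at 1 h and 12510 to 12900 at 2 h, against 3486 to 3991. The high macrophage sums come mostly from Cd14, since Clec4f reached at most 3056 and Csf1r 188.8 on any short-course array. The part of these markers in the changes of Ptpn1, Cish and, below, Igfbp1 was not tested. Grb14, whose protein binds and inhibits the active receptor, fell by 1.45 ± 0.28 at 4-8 h (limma, adjusted p = 0.000247, 17 of 17 arrays). It also fell by 0.36 ± 0.11 at 6-18 h of the long course (limma, adjusted p = 0.0276). Ptprf, a receptor-type phosphatase, fell by 0.77 ± 0.25 at 6-18 h of the long course (limma, adjusted p = 0.0455), and its second probe set had -0.49 (adjusted p = 0.0924). Of the 15 receptor-level genes tested in the short course 2 rose and 3 fell at 4-8 h, beside 27% of all probe sets.

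Among the lipid kinases and phosphatases 1 of 5 tested passed at 4-8 h of the short course, beside 27% of all probe sets. It was Inpp4a, an inositol phosphatase gene, which rose by 1.78 ± 0.52 (limma, adjusted p = 0.0107, 16 of 17 arrays). Its control mean of 84.6 lies under the filter at 91.2, so it was tested only through groups where it was high. At the Akt level Ppp2cb, a catalytic subunit gene of the phosphatase PP2A, rose by 0.46 ± 0.15 at 4-8 h of the short course (limma, adjusted p = 0.0164), and in the long course fell by 0.48 ± 0.14 at 24-48 h (adjusted p = 0.0294). Ppp2ca, the gene of the other catalytic subunit, rose by 0.58 ± 0.13 at 6-18 h of the long course (limma, adjusted p = 0.00273, 16 of 16 arrays). The difference between the courses was not tested.

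Targets of Akt gave 5 genes that rose and 2 that fell, of 15 tested, at 4-8 h of the short course, beside 27% of all probe sets. Eif4e, the cap-binding factor gene, rose by 0.96 ± 0.19 (limma, adjusted p = 0.000292) and the cell cycle inhibitor gene Cdkn1a by 1.05 ± 0.34 (adjusted p = 0.0198). Gsk3b, a kinase gene of glycogen control, rose by 0.79 ± 0.22 (limma, adjusted p = 0.00708), and Gys2, the liver glycogen synthase gene, fell by 0.70 ± 0.21 (adjusted p = 0.0135). Neither passed the F test (limma, adjusted p = 0.151 for Gsk3b and 0.489 for Gys2). Of 21 tested in the long course 4 rose and 1 fell at 72-168 h, beside 10.8% of all probe sets. Foxo3 rose by 0.86 ± 0.15 there (limma, adjusted p = 7.15e-05, 12 of 12 arrays), while a second Foxo3 probe set had 0.33 (adjusted p = 0.413). Foxo1, which encodes a forkhead factor that drives gluconeogenic genes, rose at 24-48 h by 1.29 ± 0.34 (limma, adjusted p = 0.0154, 12 of 12 arrays), to 84.0 ± 34.8 (n = 12) against 14.2 ± 7.31 in the controls (SD, n = 4), where the signal was below the filter at 35.7. It was tested only through the treated groups where it was high, so its call is no independent support for a rise. Its F test did not pass (limma, adjusted p = 0.0708). Cdkn1a rose at 72-168 h by 0.97 ± 0.21 (limma, adjusted p = 0.00119). Its second probe set did not pass there (0.53, adjusted p = 0.0644) nor in the short-course 4-8 h window (1.05, adjusted p = 0.0773).

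Liver transcripts that insulin is known to regulate moved in both directions. Igfbp1, which insulin represses, rose at 1-2 h of the short course by 2.90 ± 0.95 (limma, adjusted p = 0.0427, 5 of 5 arrays), to 12870 ± 1476 (n = 5) against 3192 ± 4183 in the controls (SD, n = 4), whose spread exceeds their mean. Srebf1, the lipogenic factor gene that insulin induces, fell by 1.40 ± 0.29 at 4-8 h of the short course (limma, adjusted p = 0.000543, 17 of 17 arrays) and by 1.18 ± 0.32 at 6-18 h of the long course (adjusted p = 0.0138, 16 of 16 arrays). At 72-168 h 3 of 6 tested rose and none fell (limma), beside 10.8% of all probe sets in either direction. These were Fasn, the fatty acid synthase gene, by 1.88 ± 0.42 (limma, adjusted p = 0.00194, 12 of 12 arrays), Pklr, the liver pyruvate kinase gene, by 1.19 ± 0.38 (adjusted p = 0.0357, 12 of 12) and Gckr, the gene of glucokinase's regulatory protein, by 1.09 ± 0.25 (adjusted p = 0.00211, 12 of 12). Fasn signal there was 1660 ± 873 (n = 12) against 529 ± 479 in the controls (SD, n = 4). The 4 controls were spread widely for the others too, at 348 ± 347.5 for Pklr, 476 ± 329 for Gckr and 758.5 ± 653.7 for long-course Srebf1 (SD). The mean Gapdh log2 ratio was 0.32 at 72 h, 0.37 at 96 h and 0.40 at 168 h, against 0.10 in the controls. High spike-in signal was on 1, 2 and 3 of the 4 arrays at these times, against 1 of 4 controls. The part of either in the 72-168 h changes, those of Foxo3 and Cdkn1a included, was not tested. Pck1, the gluconeogenic enzyme gene, fell by 0.71 ± 0.21 at 6-18 h of the long course (limma, adjusted p = 0.026, 14 of 16 arrays).

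**Figure D5:**
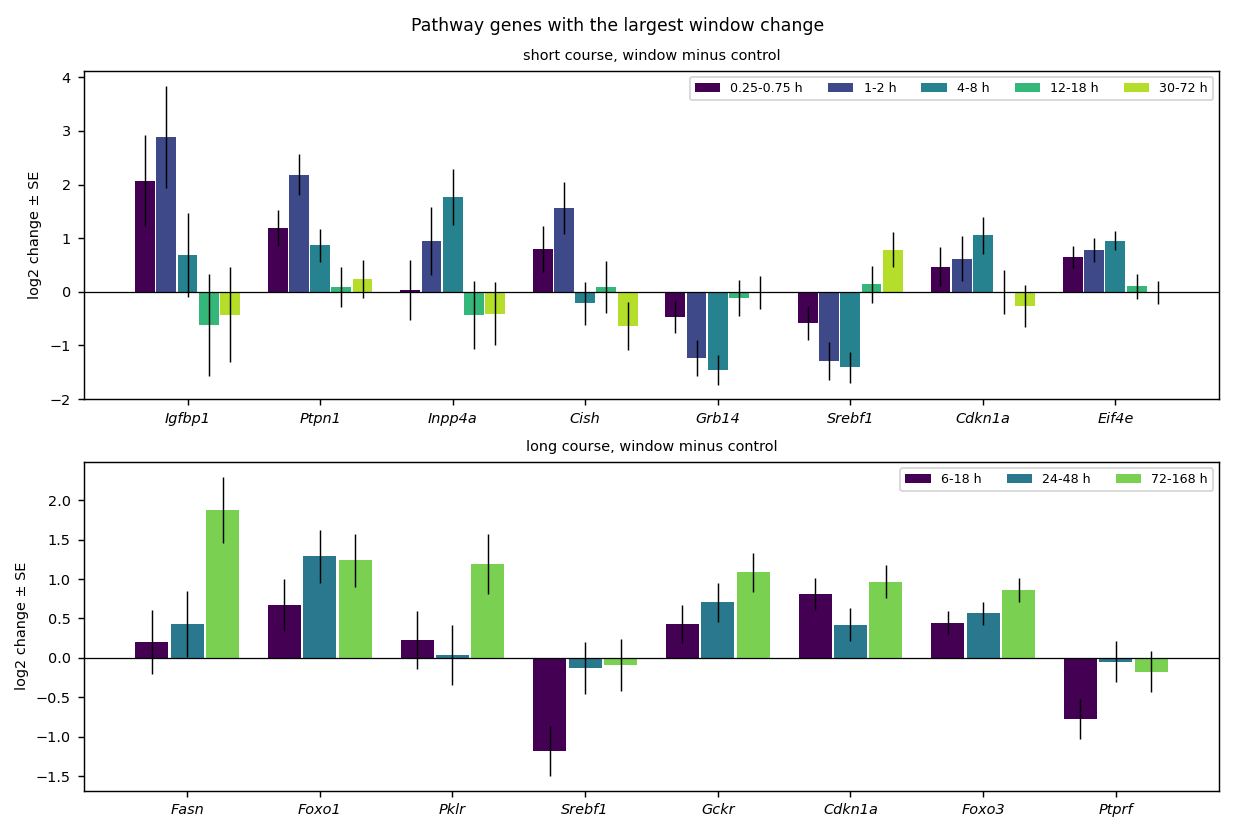
Log2 change ± standard error in each window, against the controls of the course, for the 8 pathway genes per course with the largest changes past the threshold. Of the receptor-level genes shown for the short course, Ptpn1 (2.19) and Cish (1.56) are high at 1-2 h and Grb14 (-1.45) is low at 4-8 h, and Fasn, Pklr and Gckr are highest at 72-168 h. Inpp4a in the short course and Foxo1 in the long course were tested only through groups where they were high.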

How the data were processed

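Each of the 47 and 44 Affymetrix arrays, of 2 designs, has a linear intensity for every probe set as the authors deposited it. How probes were summarised is not given in the sources used here. Short-course arrays shared a 2% trimmed mean of 801 and long-course arrays one of 150; 6 h replicate 3 of the short course stood apart and was rescaled to 801. Groups come from array titles. For long-course 96 h replicate 1 the title was followed, although its description gives 72 hours. No pair among 1081 and 946 held the same values, a count of 0.

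The scale of all tests was log2(signal + 32). Affymetrix controls (59 and 57) and probe sets under the 30th percentile of mean signal were left out, which put the filter at 91.2 and 35.7. The limma package 3.58.1 (R 4.3.3, eBayes with trend) estimated group means from all arrays of a course. Benjamini-Hochberg adjustment ran over all 6118 or 11106 probe sets, for each comparison by itself, and the code was tested on simulated data. Windows are unweighted means of their times. The number of arrays limits the precision. Every member probe set was described, a gene by its brightest. Pathway genes were named if among the 8 largest window changes past the threshold in a course, others as list examples chosen after their values were seen. Like-pattern genes are the 3 of highest Pearson r of group means. The members and lists were chosen with earlier results of these data known. Alternatives changed the constant, scaling, filter, array weights, replicate block and arrays used.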

Additional observations from a re-analysis of the deposited data

Results flagged for a closer look

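Among 87 groups of 4 arrays read for a lone array, 4 held one far from the other 3, and chance gives about 1 in 20. On Irs2 probe set U89743_at control 4 of the short course stood at 67.3, against 55.4 to 56.0 in the other controls. In the long course Insr read 48.7 on 6 h replicate 2, against 76.0 to 81.4 on the others, and Pik3r1 read 59.6 on 24 h replicate 4, against 183 to 215. Control 4 of the long course read 87.9 for Irs2, against 128 to 130, and it is the control that lies nearest to the low 13 h arrays.

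Akt1 signals lay on both sides of the control mean at different times, with all arrays of one time above and all of another below it. The log2 difference was 1.44 for 48 h minus 0.5 h on D30040_at and 0.81 for 48 h minus 18 h on rc_AA799664_at in the short course. It was 1.08 for 168 h minus 48 h on the second Akt1 probe set of the long course. The pairs of times were picked for the largest difference after the F test had passed, and none of these times passed against the controls. The 0.5 h group of D30040_at holds the array at 115, without which its change from the controls was -0.34. These differences between times were not tested.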

How the results depend on the processing

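The 2 short-course and 2 long-course probe sets past the F test, all of Akt1, kept that call in every fit that left out 1 array. They lost it in the short course when 6 h replicate 3 stayed on its deposited scale, where the count was 0 with adjusted p = 0.137 for D30040_at and 0.622 for rc_AA799664_at. Averaging a gene's probe sets gave 1 call in each course, by construction, since the Akt1 probe sets became 1. Leaving out arrays in turn gave 2 in the short course and 2 to 3 in the long course. Short-course calls at single times, 0 as reported, were 1 with quantile normalization, 2 with median centring, 1 with the filter at the 50th percentile, 1 with arrays of low correlation left out, 3 with no filter and 0 to 2 with arrays left out in turn. All but the 3 with no filter were of Akt1, at 0.5 h in each of these settings, and at 2 h too without 2 h replicate 2. The arrays whose removal gave a call were control 4, 0.5 h replicate 3 and both 2 h arrays. With no filter 1 window call and 1 call of 30-72 h minus 4-8 h appeared, both of dim Irs2 probe sets.

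Long-course calls at single times, 2 as reported, were 1 with no filter, 1 in arrays of low spike-in signal alone and 0 to 3 with arrays left out in turn. The lowest was without control 2, and it was 1 without control 1, any 13 h array or 36 h replicate 1 or 2. The Irs2 change at 13 h lay between -0.93 and -0.61 in the other alternatives and lost its call in 3 of 14, and the Akt1 change at 36 h lay between -0.91 and -0.46, and kept its call in all 14. Long-course windows gave 0 to 1 calls with arrays left out in turn, the 1 being of Akt1 at 24-48 h when the fourth array of 24 h, the fourth of 36 h or the third of 48 h was left out. None of the calls above reversed. Of all member changes, calls included, 22 of 110 in the short course and 7 of 98 in the long course turned sign with quantile normalization or median centring. Those that turned were all at or under 0.17 in size as deposited, and none had passed. Among them were Insr at 12-18 h and 30-72 h, and Irs1 and both Akt1 probe sets at 4-8 h. Except where the construction is named, the cause was not tested.

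With a replicate block the short course gave 1 single-time call, Akt1 at 0.5 h, and the long course 3 F-test calls. Residuals of same-numbered arrays correlated at a median of -0.01 (short course) and 0.06 (long course), with single pairs down to -0.63 and -0.19, so the arrays were not treated as pairs. A long-course number can still go with a batch, since all 11 arrays numbered 4 had high spike-in signal, against 0 of those numbered 1, 1 of those numbered 2 and 3 of those numbered 3.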

Other observations

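Over single arrays, as descriptions with no test, 2 of the 3 long-course Akt1 probe sets followed Eef2, the gene of a translation elongation factor. The correlation over 44 arrays was r = 0.74 for the brightest Akt1 probe set, r = 0.79 for the second and r = 0.24 for the third. The short course did not show this with its brightest Eef2 probe set, at r = -0.34 for rc_AA799664_at and r = -0.21 for D30040_at over 47 arrays, although D30040_at followed a dimmer Eef2 probe set at r = 0.67. Long-course Irs2 followed Igfbp1 at r = 0.63 over 44 arrays. Igfbp1 itself had long-course window changes between -0.17 and 0.01, and none passed (limma). The arrays of a course share their scaling and their times, and Eef2 was singled out after the values were seen.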
